A study of Mus musculus with 16 samples.

Results

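The proteasome genes were followed through the knockdown of the lncRNA *RUS* in mouse neural stem cells (NSC). Members were taken by symbol, as every line of the 2 deposited expression tables that is named *Psma*, *Psmb*, *Psmc*, *Psmd*, *Psme*, *Psmf* or *Psmg* followed by a number only and that reached a mean of 1 TPM over a day (TPM are transcript abundances corrected for length and scaled to the same total in each library). Of 48 genes with such a name, 46 reached that level, among 55471 lines in a table. They were sorted by role into 14 genes of the core particle, 17 of the regulatory particle, 3 of the immunoproteasome, 4 activators, 1 inhibitor and 7 assembly factors. The NSC came from cortices of C57BL/6 mouse embryos at E15-16, pooled without regard to sex, and were grown as a monolayer. They were transduced with a lentivirus that carries a scrambled shRNA (shRNA-CON) or 1 shRNA against *RUS* (shRNA-RUS), so that all groups carry a lentiviral shRNA. RNA was taken on day 5, the day on which the medium was changed to start differentiation, and on day 7. There were 4 libraries for each shRNA and day, 16 in all. The sources do not say whether the 4 libraries of a group came from separate isolations of cells, so p-values measure the spread between these libraries only.

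The proteasome degrades proteins that are tagged with ubiquitin. Its barrel-shaped core particle consists of outer rings of alpha subunits, which gate the entry, and inner rings of beta subunits, of which *Psmb5*, *Psmb6* and *Psmb7* encode the catalytic ones. The regulatory particle, with a base of ATPases and a lid, binds ubiquitin chains, removes them and unfolds the substrate. Cells that respond to interferon replace the catalytic subunits by those encoded by *Psmb8*, *Psmb9* and *Psmb10*, which alters the peptides that are cut for antigen presentation. Activators can cap the core in place of the regulatory particle, and dedicated chaperones assist assembly. When the proteasome is inhibited, the transcription factor encoded by *Nfe2l1* is known to raise transcription of its subunits through antioxidant response elements.

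Levels are given as scaled TPM, that is TPM divided by a factor for each of the 16 libraries, the median ratio of its genes to their geometric means. A gene is called higher or lower when limma's adjusted p over all genes tested is below 0.05. The knocked-down transcript was near the lower end of detection. *Gm20754*, the mouse *RUS* gene, had 0.24, 0.11, 0.18 and 0.16 TPM with shRNA-CON and 0.05, 0, 0.12 and 0.32 TPM with shRNA-RUS on day 5. On day 7 it had 0.70, 0.72, 0.26 and 0.54 TPM against 0.54, 0.38, 0 and 0.04 TPM. The library labelled shRNA-RUS replicate 4 on day 5 thus lay above all controls of its day. This goes against its label at a level where few reads decide, and day 5 results are also given without it. In cycling-cell markers it lay with its group. Their 6 genes summed to 649.7 to 678.5 scaled TPM with shRNA-CON and 368.3 to 412.1 with shRNA-RUS that day. The study itself reports lower *RUS* in the knockdown by RT-qPCR. Markers of neural stem cells and radial glia were abundant in all libraries. Their 6 genes summed to 12450 to 14590 scaled TPM with shRNA-CON and 17730 to 21220 with shRNA-RUS on day 5, and to 6790 to 7043 and 7016 to 7676 on day 7. The 5 astrocyte markers summed to 3126 to 3262 and 4110 to 4271 on day 5, and to 1541 to 1581 and 1660 to 1865 on day 7. These sums rest on a few abundant genes, *Vim* and *Fabp7* in the first and *Gfap* in the second, named after their values were seen. By gene, 3 of 6 and 1 of 5 were higher with shRNA-RUS on day 5 and 1 and 0 lower. On day 7, 2 of 6 and 2 of 5 were higher and 2 and 1 lower. *Nes* went against its sum, with 57.6 ± 3.18 scaled TPM with shRNA-CON and 31.4 ± 2.28 with shRNA-RUS on day 5 (SD, n = 4). On day 7 it had 102 ± 5.08 with shRNA-CON and 44.5 ± 4.65 with shRNA-RUS. The part of these genes' cells in the results on the members was not tested. Those of endothelial and mural cells and of meningeal fibroblasts summed to at most 31.0 and 22.0 scaled TPM. In bulk RNA, fewer cells of a type and less RNA per cell cannot be told apart.

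The 46 genes held 0.639% to 0.666% of all TPM with shRNA-CON and 0.622% to 0.660% with shRNA-RUS on day 5, ranges that overlapped, and 0.608% to 0.637% and 0.484% to 0.510% on day 7, ranges that did not. In shRNA-CON on day 5, *Psmb6* (358 ± 29.2 scaled TPM, SD, n = 4), *Psmb4* (326 ± 38.4) and *Psma3* (321 ± 14.6) led. *Psmb6* was the highest of these 3 in every library of the group, and their order was not tested. *Psmb9* (26.2 ± 1.02), the core chaperone gene *Psmg1* (28.4 ± 1.54) and the base chaperone gene *Psmd10* (31.0 ± 0.912) had the lowest means. The highest mean was 13.7 times the lowest in this group and 31.7 times in shRNA-RUS on day 7, where *Psmb9* (8.06 ± 0.846) and *Psmb8* (13.4 ± 2.41) stood at the bottom. Spread between libraries was small, with a median coefficient of variation over the members of 5.50%, 6.28%, 4.27% and 4.60% in shRNA-CON and shRNA-RUS on day 5 and in shRNA-CON and shRNA-RUS on day 7. Of the genes that missed the level, *Psma8*, the alpha subunit of testis, had 0 to 0.31 TPM over the 16 libraries. *Psmb11*, the catalytic subunit of thymus cortex, had 0.02 to 0.18 TPM.

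Since *Nfe2l1* is among the genes described further on, promoter windows (250 bases before to 50 bases after a start, RefSeq, GRCm38.p6) were searched on both strands for the letters of the antioxidant response element, TGACNNNGC. A window was at hand for 39 of the 46 members, and not for *Psmb1*, *Psmb2*, *Psmb7*, *Psmc3*, *Psmd3*, *Psmd7* and *Psmg2*. The letters occurred in 14.3% of the 42 windows of members and in 12.4% of all 32851 windows, so members held them about as often as other genes. The 6 members with a match are shown with up to 10 bases on either side, read along the strand of the motif, with the motif in capitals. Their values are taken up again below.
Psmb5, chr14:54618024-54618052: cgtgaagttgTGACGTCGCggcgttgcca
Psmb6, chr11:70525338-70525366: ctaaagagagTGACGGAGCgctttacgac
Psmc6, chr14:45329587-45329615: gagcaatgccTGACTTAGCtactggctgg
Psmd9, chr5:123228149-123228177: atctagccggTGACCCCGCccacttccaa
Psmd12, chr11:107479278-107479299: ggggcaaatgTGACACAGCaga
Psme4, chr11:30771758-30771786: gctcttctggTGACGCTGCagccgcagcg
The genes lie on the minus strand (*Psmb5*) or the plus strand (the others), and the match is on the strand opposite to the gene in *Psmc6*, *Psmd12* and *Psme4*. The gamma-activated site, TTCNNNGAA, which is bound by STAT proteins, was in 8.30% of all windows and in 7.14% of the member windows, in *Psmb8*, *Psmd2* and *Psmg1*. That of *Psmb8* is shown as the 1 among the immunoproteasome genes. The interferon regulatory factor element, searched as GAAA, any 2 bases and GAAA again, was in 3.44% of all windows and, among activators, in that of *Psme1*.
Psmb8, gamma-activated site, plus strand, chr17:34198088-34198116: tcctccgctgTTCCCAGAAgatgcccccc
Psme1, interferon regulatory factor element, minus strand, chr14:55578493-55578522: agcgggaaggGAAAGCGAAAgcacagctcg
This last element was in 11.9% of the member windows, in *Psmb3*, *Psmd4*, *Psmd9*, *Psme1* and *Psmg4*. Such a match describes letters in a window and not binding. CCAAT, the box bound by NF-Y, was in 31.0% of the member windows and in 37.4% of all.

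First, shRNA-RUS was compared with shRNA-CON on day 5. Of the 46 members, 13 were higher and 6 were lower, and 27 were not called. Over all 22581 genes tested, 14.8% were higher and 17.9% lower, and among those that averaged 1 TPM or more 21.0% and 22.8%. The higher members came from several classes. The catalytic genes *Psmb5* and *Psmb6*, the beta ring genes *Psmb1* and *Psmb4*, the alpha ring gene *Psma5*, the ATPase genes *Psmc3*, *Psmc4* and *Psmc5*, the ubiquitin receptor gene *Psmd4*, the lid genes *Psmd7* and *Psmd8*, *Psmb10* and the activator gene *Psme1* rose. The lower ones were *Psmb9*, the ATPase gene *Psmc6*, the scaffold gene *Psmd2*, the lid genes *Psmd6* and *Psmd12*, and *Psmd10*. The median log2 fold change of the members was 0.10, beside a median of −0.06 over all genes tested.

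**Figure D1:**
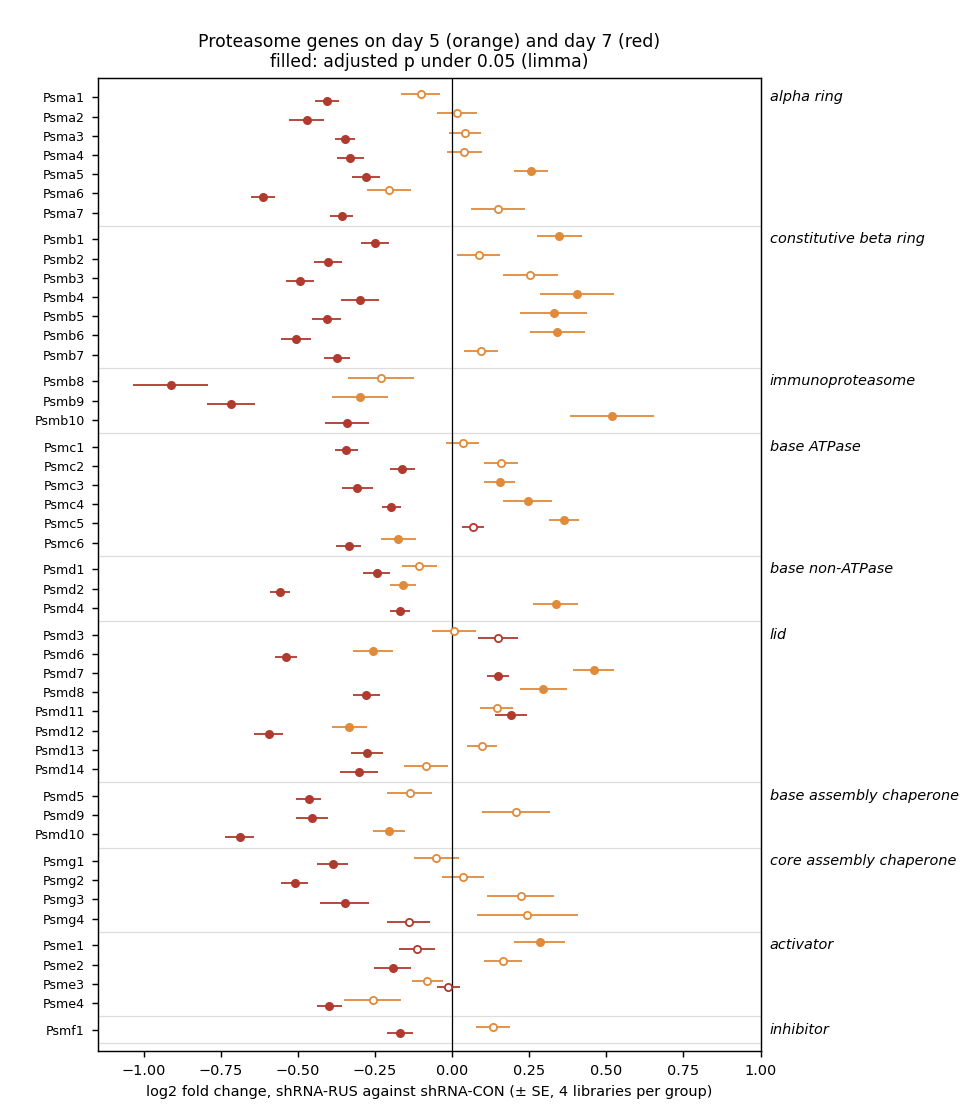
The log2 fold change of each of the 46 proteasome genes, shRNA-RUS against shRNA-CON, with its SE (4 libraries per group), on day 5 (orange) and day 7 (red), filled where limma's adjusted p is below 0.05. On day 5 the members lie on both sides of 0, from −0.33 to 0.52; on day 7 all but 4 lie below 0, down to −0.91.

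By class, 5 of 14 core genes were higher on day 5 and none lower, with a median log2 fold change of 0.12. Within the core, 4 of 7 constitutive beta genes were higher (median 0.33) against 1 of 7 alpha genes (median 0.04). The regulatory particle was mixed, with 6 of 17 genes higher and 4 lower. Of the 4 activators 1 was higher, and of the 7 assembly factors 1 was lower. The split of calls on day 5 depended on how libraries were scaled. It was 6 higher and 15 lower with TPM as deposited, 5 and 13 after quantile normalization, and 9 and 11 after scaling to the 75th percentile. Over all genes the same scalings called 7.83% higher and 26.7% lower, 14.8% and 14.7%, and 11.5% and 21.8%. The members' shares with TPM as deposited were thus near those of all genes. The median over the members was then −0.06, −0.03 and 0.03, beside −0.21, 0.01 and −0.13 over all genes tested. The medians of the core and of the regulatory particle turned to −0.04 and −0.06 with TPM as deposited and to −0.05 and −0.03 after quantile normalization. Under all 4 scalings, *Psmb1*, *Psmb10*, *Psmc5*, *Psmd4* and *Psmd7* were called higher, and the same 6 genes as above were called lower. *Psmc3*, called higher at 0.15, fell on the other side of 0 with TPM as deposited and after quantile normalization.

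*Psmd7*, which encodes the lid subunit that pairs with the deubiquitinase, had the largest called increase among the constitutive subunits on day 5. It had 111, 129, 129 and 130.2 scaled TPM with shRNA-CON and 177, 170.2, 176 and 161 with shRNA-RUS. The groups did not overlap, and the log2 fold change was 0.46 ± 0.07 (SE, adjusted p = 0.00078). *Psmb4* had 277, 337, 321 and 369 scaled TPM with shRNA-CON and 469, 468, 451 and 342 with shRNA-RUS. Here 3 shRNA-RUS libraries lay above all controls and the fourth within them (0.41 ± 0.12, adjusted p = 0.0295). The largest called decrease was that of the lid gene *Psmd12*, with 86.3, 98.2, 98.1 and 90.1 against 77.5, 72.7, 72.3 and 72.6 scaled TPM and no overlap (−0.33 ± 0.06, adjusted p = 0.00222). *Psmd6*, also of the lid, had 110.3, 132, 122 and 122 against 109.5, 98.1, 98.9 and 99.3 scaled TPM, a narrow gap between the groups (−0.26 ± 0.06, adjusted p = 0.0146). In all, 9 members lay above and 5 below the controls without overlap on day 5, where 14.1% and 18.7% of all genes did.

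The library labelled shRNA-RUS replicate 4 stood nearer to the controls than the other three. Over the members, its median log2 ratio to the mean of the controls was −0.02, against 0.15, 0.11 and 0.11 in the others. Without it, 21 members were higher and 6 lower, with 7 core genes, 8 regulatory genes, 3 assembly factors, 2 activators and *Psmb10* among the higher ones. The same fit called 17.4% of all genes higher and 20.3% lower. The count of 19 calls moved to 9 without shRNA-CON replicate 3 (7 higher and 2 lower), and to 12, 11 and 12 without shRNA-RUS replicates 1, 2 and 3, where 8, 7 and 7 were higher. Without shRNA-CON replicate 1 it was 13, with 8 higher. The calls over all genes fell as well in these 5 fits, to between 11.7% and 13.2% higher and between 13.8% and 15.4% lower. Single calls of day 5 were therefore of unequal strength. Over 17 alternatives (other settings, or 1 library left out), *Psmd7* and *Psmd12* kept their call in all, and *Psmb10* lost it in 3, among them without shRNA-RUS replicate 2 or 3 (adjusted p = 0.0505 each, limma). *Psmb5* lost its call in 12 (adjusted p from 0.00126 to 0.197), *Psmb4* in 11 (0.00247 to 0.151), *Psme1* in 11 (0.00959 to 0.162), *Psmb9* in 9 (0.00294 to 0.125), *Psmb6* in 4 (0.00152 to 0.0858) and *Psmd6* in 2 (0.000496 to 0.0753). For *Psmb4*, *Psmb5*, *Psmb9* and *Psme1* most single libraries left out, controls included, were enough to lose it.

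On day 7, after differentiation had been started, nearly the whole set was lower with shRNA-RUS. Of the 46 members 39 were lower and 2 higher, where 25.8% of the 24606 genes tested were lower and 23.4% higher (33.2% and 32.0% of those that averaged 1 TPM or more). The median log2 fold change of the members was −0.34, beside −0.03 over all genes tested. These 39 and 2 members were called under all 4 scalings, and leaving out single libraries gave 38 to 40 lower and 2 to 3 higher. The same 39 members lay below the controls in all 4 libraries without overlap, and the same 2 above them, where 24.7% and 22.3% of all genes did.

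All 14 core genes were lower on day 7, with log2 fold changes from −0.61 (*Psma6*) to −0.25 (*Psmb1*) and a median of −0.39. All 3 immunoproteasome genes were lower, with a median of −0.72. Of the regulatory particle, 13 of 17 genes were lower, with a median of −0.28. Its ATPases ranged from −0.34 (*Psmc1*) to 0.07 (*Psmc5*, adjusted p = 0.145), and *Psmd2*, which encodes a large scaffold subunit of the base, had −0.56 ± 0.03. The lid was split. *Psmd12* (−0.60) and *Psmd6* (−0.54) were among the largest decreases of the regulatory particle, whereas *Psmd11* and *Psmd7* rose and *Psmd3* had 0.15 (adjusted p = 0.0826). Of the activators, 2 of 4 were lower, and of the assembly factors 6 of 7, with a median of −0.46.

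*Psmd11*, a lid gene whose product is known to raise proteasome assembly in stem cells, had 77.0, 74.6, 67.9 and 79.5 scaled TPM with shRNA-CON and 86.9, 83.2, 80.1 and 87.6 with shRNA-RUS on day 7. Every shRNA-RUS library lay above every control (0.19 ± 0.05, adjusted p = 0.0117). On day 5 it had 89.3, 93.6, 81.4 and 84.6 against 101, 94.0, 95.6 and 94.5 scaled TPM, with a difference of the same sign that was not called (0.14, adjusted p = 0.0727). *Psmd7* was the only member called higher on both days. Its libraries on day 7 had 106, 105, 106 and 104 against 122, 117, 113 and 110.2 scaled TPM (0.15 ± 0.04, adjusted p = 0.0064). *Psmd10*, which encodes gankyrin, a chaperone of the base, had the largest decrease outside the immunoproteasome. It had 28.5, 29.1, 28.6 and 27.9 scaled TPM with shRNA-CON and 17.6, 17.2, 18.7 and 16.5 with shRNA-RUS (−0.69 ± 0.05, adjusted p = 3.22e-06), and on day 5 30.8, 31.0, 32.1 and 29.9 against 28.2, 25.3, 26.7 and 27.1 (−0.21, adjusted p = 0.0162). *Psmd12* had 78.9, 81.4, 76.4 and 84.7 against 55.1, 52.9, 53.6 and 49.0 scaled TPM on day 7. *Psmd6* had 110.1, 116, 111 and 114 against 79.8, 77.6, 76.5 and 73.6. In both, controls and knockdown were far apart.

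The 6 catalytic genes were then read by library. *Psmb5* encodes the chymotrypsin-like subunit and lies at chr14:54614119-54618022 (GENCODE vM21, GRCm38). On day 5 it had 188, 215, 198 and 227 scaled TPM with shRNA-CON and 278, 282, 279 and 206 with shRNA-RUS, and on day 7 187, 181, 182 and 164 against 138, 134, 128 and 132. The knockdown libraries thus lay above the controls on day 5, save for the one labelled replicate 4, and below them on day 7. The log2 fold change was 0.33 ± 0.11 (adjusted p = 0.0449) on day 5 and −0.41 ± 0.05 (adjusted p = 7.59e-05) on day 7. *Psmb6*, for the caspase-like subunit at chr11:70525367-70527858, had 328, 370.5, 341 and 393 against 474, 473, 485 and 386 scaled TPM on day 5. On day 7 it had 398, 357, 363 and 348 against 261, 259, 259 and 242. It showed the same pattern, with 0.34 ± 0.09 and −0.51 ± 0.05. *Psmb7*, for the trypsin-like subunit at chr2:38588036-38644087, had 230.4, 248, 237 and 235 against 266, 256, 259 and 233 scaled TPM on day 5, and 190.0, 181, 171 and 173 against 142, 135, 138 and 132 on day 7. It was not called on day 5 (0.09, adjusted p = 0.227) and was lower on day 7 (−0.37 ± 0.04). Both *Psmb5* and *Psmb6* carry the antioxidant response element letters shown above, and *Psmb7* had no window to search.

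**Figure D2:**
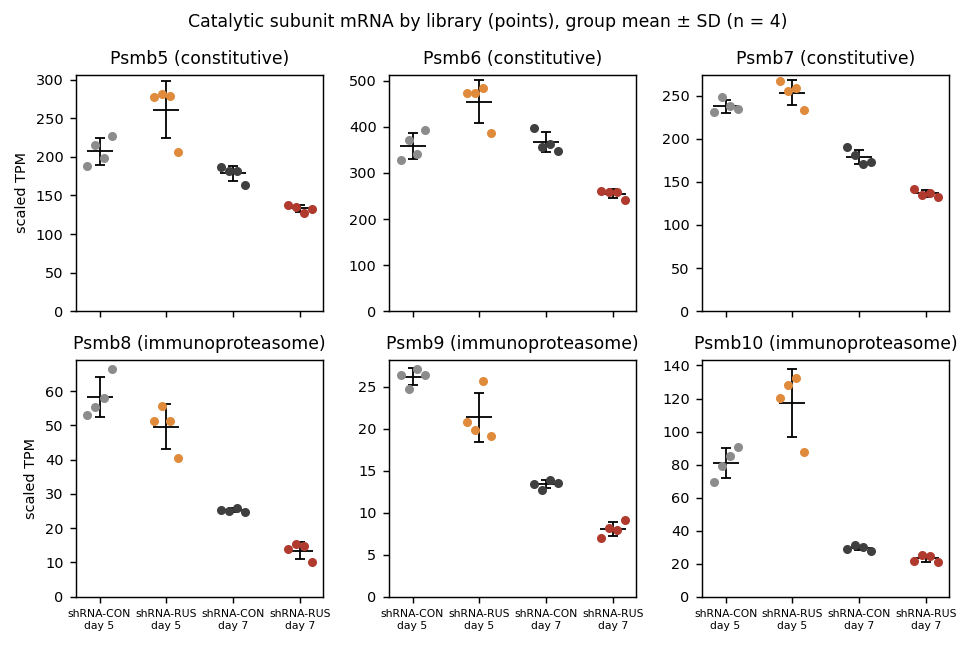
Scaled TPM of the 6 catalytic subunit genes in each library (points), with group mean and SD (n = 4 per group), constitutive genes above and their immunoproteasome counterparts below; each panel has its own axis from 0. The 3 immunoproteasome genes drop from day 5 to day 7 with both shRNAs, and on day 7 all 6 genes have their lowest values with shRNA-RUS.

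The immunoproteasome genes stood much lower than their constitutive counterparts and moved apart from each other on day 5. *Psmb8*, at chr17:34197721-34201454, had 53.0, 55.4, 58.1 and 66.4 scaled TPM with shRNA-CON and 51.3, 55.8, 51.3 and 40.3 with shRNA-RUS. The groups overlapped (−0.23, adjusted p = 0.135). *Psmb9*, at chr17:34181987-34187764, had 26.4, 24.7, 27.1 and 26.4 against 20.7, 19.8, 25.6 and 19.2 scaled TPM (−0.30 ± 0.09, adjusted p = 0.0324). *Psmb10*, at chr8:105935735-105938444, had 69.4, 79.2, 85.3 and 90.6 against 120.2, 128, 133 and 87.3 scaled TPM (0.52 ± 0.14, adjusted p = 0.0175), the largest increase of all members. *Psmb10* was thus higher and *Psmb9* lower in the same libraries, except that 1 knockdown library fell within the controls for each. *Psmb9* overlaps *Tap1* on the other strand, and *Psmb10* and *Psmb8* overlap predicted genes, and whether counting used the strand is not given in the sources used here.

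On day 7 all 3 were lower with shRNA-RUS and did not overlap the controls. *Psmb8* had 25.4, 25.0, 25.9 and 24.8 against 13.8, 15.3, 14.7 and 9.95 scaled TPM, which is 0.531-fold (−0.91 ± 0.12, adjusted p = 0.000181) and the largest decrease of all members. *Psmb9* had 13.4, 12.7, 13.9 and 13.5 against 7.02, 8.14, 7.98 and 9.09 (−0.72 ± 0.08, adjusted p = 5.19e-05). *Psmb10* had 28.8, 31.3, 29.8 and 27.8 against 21.6, 25.0, 24.8 and 20.9 (−0.34 ± 0.07, adjusted p = 0.00314). The decrease of *Psmb10* was close to that of the core genes, and those of *Psmb8* and *Psmb9* exceeded the median of the core.

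A ratio within a library does not depend on its scaling, so each immunoproteasome gene was divided by the gene whose product it replaces. *Psmb8* over *Psmb5* was 0.281 ± 0.0169 (SD, n = 4) with shRNA-CON and 0.190 ± 0.00729 with shRNA-RUS on day 5, and 0.142 ± 0.00699 and 0.101 ± 0.0185 on day 7. All knockdown libraries lay below all controls on both days (exact permutation test, two-sided, p = 0.0286, the smallest that 4 against 4 libraries allow, and 0.0571 after adjustment over 6 tests). *Psmb9* over *Psmb6* was 0.0734 ± 0.00756 and 0.0471 ± 0.00513 on day 5 (exact p = 0.0286, adjusted 0.0571), and 0.0366 ± 0.00239 and 0.0317 ± 0.00441 on day 7 (exact p = 0.0857, adjusted 0.103). *Psmb10* over *Psmb7* was 0.342 ± 0.0386 and 0.460 ± 0.0631 on day 5 (exact p = 0.0571, adjusted 0.0857), and 0.165 ± 0.0107 and 0.169 ± 0.0163 on day 7 (exact p = 0.657). None of the 6 passed the adjustment. Without the library labelled shRNA-RUS replicate 4 on day 5, the log2 difference of *Psmb10* over *Psmb7* was 0.52 in place of 0.43, and without shRNA-RUS replicate 4 on day 7 that of *Psmb9* over *Psmb6* was −0.30 in place of −0.22. These were the libraries that overlapped the controls, so nothing is read from the values without them. Together the 3 immunoproteasome genes held 17.1% ± 0.915 of the TPM of the 6 catalytic genes with shRNA-CON on day 5 and 16.2% ± 0.874 with shRNA-RUS. On day 7 they held 8.61% ± 0.397 and 7.82% ± 0.615. The share was lower on day 7 than on day 5 with either shRNA, and the libraries of the shRNAs overlapped within each day.

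Next, the knockdown effects of the 2 days were compared in a single fit over the 16 libraries. The effect on day 7 was lower than that on day 5 for 38 of the 46 members and higher for 0, where 14.6% of the 23789 genes tested were lower and 15.2% higher (20.1% and 20.4% of those that averaged 1 TPM or more). At an unadjusted p under 0.05, limma also gave 0 higher members, and the 3 positive differences were at most 0.13 (*Psmd3*, adjusted p = 0.338). The median of the difference was −0.41 over the members and 0.04 over all genes tested. All 14 core genes and all 3 immunoproteasome genes were among the 38, with 12 of 17 regulatory genes, 6 of 7 assembly factors and 2 of 4 activators. The largest differences were those of *Psmb10* (−0.87 ± 0.16, adjusted p = 0.000997), *Psmb6* (−0.86 ± 0.10, adjusted p = 2.99e-05) and *Psmb3* (−0.76 ± 0.10, adjusted p = 9.11e-05). *Psmb3*, a structural gene of the beta ring, had 223, 256, 256 and 265 scaled TPM with shRNA-CON and 316, 310.1, 316 and 251 with shRNA-RUS on day 5, and 228, 213, 205 and 207 against 159, 149.6, 149.9 and 142 on day 7. With TPM as deposited 28 members were lower and 3 higher, where 8.63% of all genes were lower and 24.0% higher, and 28 were called lower under all 4 scalings.

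Of the 13 members that were higher on day 5, 10 were lower on day 7, 1 (*Psmd7*) was higher on both days, and *Psmc5* and *Psme1* were not called on day 7. The 6 that were lower on day 5 were also lower on day 7, as were 39 of the 46 members in all, and the same pairs of calls were not counted over all genes. These 6 were *Psmb9*, *Psmc6*, *Psmd2*, *Psmd6*, *Psmd10* and *Psmd12*. A further 23 members were not called on day 5 and were lower on day 7, and *Psmd3*, *Psme3* and *Psmg4* were called on neither day.

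The days were also compared within each shRNA. Differentiation was started in between, so time, medium and any batch of a day cannot be told apart. From day 5 to day 7 with shRNA-CON, 30 members fell and 4 rose, where 21.6% of all genes fell and 26.9% rose (28.9% and 30.8% of those that averaged 1 TPM or more). The members that rose were *Psme4*, *Psmd9*, *Psmf1* and *Psmd5*. With shRNA-RUS 43 fell and 1 rose (*Psme4*), where 25.8% of all genes fell and 35.0% rose (34.1% and 39.1%). The median log2 change was −0.21 with shRNA-CON and −0.62 with shRNA-RUS, beside 0.07 and 0.13 over all genes tested. With TPM as deposited the calls were 17 lower and 7 higher with shRNA-CON and 33 and 5 with shRNA-RUS, where 14.4% of all genes were lower and 36.0% higher, and 14.9% and 49.6%. After quantile normalization they were 20 and 7, and 37 and 2 (24.3% and 23.8%, and 28.8% and 29.4% of all genes). The 75th percentile gave 25 and 5, and 41 and 2 (18.8% and 30.3%, and 22.1% and 39.2% of all genes). The immunoproteasome genes fell most. *Psmb8*, *Psmb9* and *Psmb10* fell by 1.19, 0.96 and 1.45 on the log2 scale with shRNA-CON, and by 1.89, 1.39 and 2.33 with shRNA-RUS. Of the constitutive genes, *Psmb1* fell by 0.39 with shRNA-CON and by 1.00 with shRNA-RUS, whereas *Psmb6* had 0.03 (adjusted p = 0.732) and fell by 0.83.

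**Figure D3:**
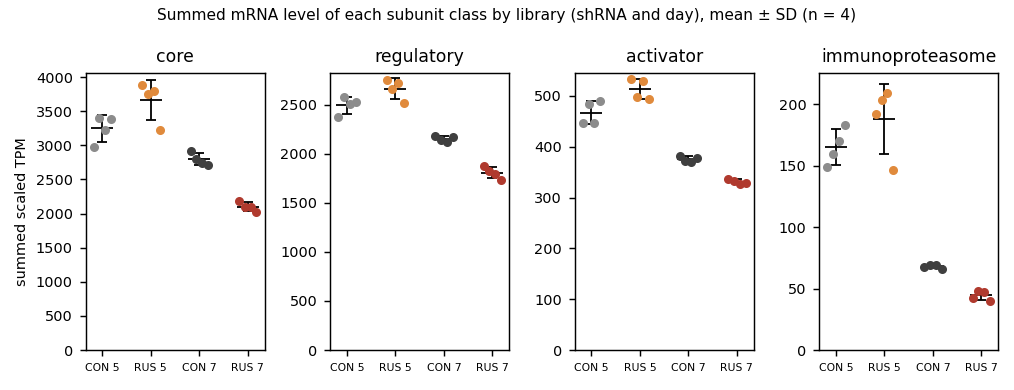
Summed scaled TPM of the core (14 genes), regulatory (17), activator (4) and immunoproteasome (3) genes in each library (points; CON and RUS stand for shRNA-CON and shRNA-RUS, followed by the day), with group mean and SD (n = 4); each panel has its own axis from 0. In all 4 classes the shRNA-RUS libraries of day 7 have the lowest sums, and 1 library of shRNA-RUS on day 5 lies below the other three in the core and the immunoproteasome.

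Levels were then summed by class. The core genes summed to 3249 ± 199 scaled TPM (SD, n = 4) with shRNA-CON and 3665 ± 294 with shRNA-RUS on day 5, and to 2795 ± 89.8 and 2100.0 ± 66.9 on day 7. The regulatory genes summed to 2494 ± 87.2 and 2662 ± 106, and to 2154 ± 29.9 and 1805 ± 56.2. The order on day 5 depended on the scaling, since after quantile normalization the regulatory genes summed to 2403 and 2333. The immunoproteasome genes summed to 166 ± 14.9 and 188 ± 28.5, and to 68.1 ± 1.57 and 44.6 ± 4.05. The 4 activator genes summed to 467 ± 23.0 and 514 ± 20.5, and to 375 ± 5.82 and 331 ± 4.69. On day 7 no knockdown library reached a control in any class. On day 5 the groups overlapped in the core, regulatory and immunoproteasome sums. In this scaling the activator sums of 494.5 to 533 with shRNA-RUS lay above those of 447 to 489.6 with shRNA-CON. The activator mean with shRNA-RUS was 448 with TPM as deposited and 450.3 after quantile normalization. The median log2 fold change of the activators then turned from 0.042 to −0.12 and −0.075, so the gap is not shown beyond this scaling.

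The activators did not move as 1 class. *Psme1* and *Psme2* encode the subunits of the interferon-inducible activator PA28 alpha-beta and lie on the same chromosome, at chr14:55578123-55581529 and chr14:55587441-55591113. *Psme1* had 123, 140.0, 129 and 156 scaled TPM with shRNA-CON and 176, 167, 171 and 150.4 with shRNA-RUS on day 5 (0.28 ± 0.08, adjusted p = 0.0272), and 97.8, 92.6, 97.3 and 97.4 against 85.2, 81.0, 98.8 and 88.5 on day 7 (−0.11, adjusted p = 0.146). *Psme2* had 219, 240.2, 213 and 232 against 267, 239, 267 and 239 on day 5 (0.17, adjusted p = 0.0689), and 161, 155, 149 and 147 against 145, 139, 119 and 130.3 on day 7 (−0.19 ± 0.06, adjusted p = 0.0241). This last call was lost in 5 of the 17 alternatives. Both fell from day 5 to day 7, by 0.50 and 0.56 on the log2 scale with shRNA-CON. Without the immunoproteasome genes these were the largest decreases over time in the controls.

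*Psme3*, which encodes the nuclear activator PA28 gamma, had 65.4, 66.3, 67.6 and 67.2 scaled TPM with shRNA-CON and 59.7, 61.3, 63.7 and 67.2 with shRNA-RUS on day 5, and 66.4, 64.7, 63.6 and 68.7 against 61.8, 67.0, 64.8 and 65.1 on day 7. In this scaling it was called in none of the 5 comparisons, and its log2 differences ranged from −0.08 to 0.06. With time in shRNA-RUS it was called higher in the other three scalings, by 0.36 with TPM as deposited (adjusted p = 2.96e-05), 0.17 after quantile normalization and 0.14 with the 75th percentile, and it fell by 0.24 on day 5 in the knockdown with TPM as deposited (adjusted p = 0.0268). *Psme4*, for the activator PA200 at chr11:30771726-30880361, went the other way in time. It had 39.2, 36.7, 37.8 and 34.9 scaled TPM on day 5 and 56.7, 58.5, 59.5 and 64.5 on day 7 with shRNA-CON, a rise of 0.69 ± 0.08 (adjusted p = 2e-06). With shRNA-RUS it had 31.0, 29.3, 27.2 and 37.5, and then 45.5, 45.0, 43.8 and 45.3, a rise of 0.53 ± 0.08. Of the members' transcripts used for length, that of *Psme4* is the longest (6491 nucleotides). Other genes over 5000 nucleotides had a median change with time of 0.24 with shRNA-CON and 0.52 with shRNA-RUS, where 72.0% of them rose. After the adjustment for length described below, which was added after the data had been seen, the change of *Psme4* was 0.45 (limma, adjusted p = 6.05e-07) with shRNA-CON and 0.04 (adjusted p = 0.463) with shRNA-RUS. It was lower with shRNA-RUS on day 7 (−0.40 ± 0.04, adjusted p = 3.81e-05) and not called on day 5 (−0.26, adjusted p = 0.0625). *Psmf1*, which encodes the inhibitor PI31, had 45.4, 45.0, 49.7 and 43.9 against 50.8, 52.2, 49.2 and 49.1 scaled TPM on day 5 (0.13, adjusted p = 0.0971), and 55.2, 50.1, 52.7 and 55.7 against 46.6, 46.2, 46.2 and 49.0 on day 7 (−0.17 ± 0.04, adjusted p = 0.00811).

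Of the 7 assembly factors, *Psmd10* alone was called on day 5, and 4 of the 7 had positive log2 fold changes, up to 0.24 (*Psmg4*, adjusted p = 0.291). On day 7, 6 of 7 were lower. Of the chaperones of the core, *Psmg1* (−0.39 ± 0.05), *Psmg2* (−0.51 ± 0.04) and *Psmg3* (−0.35 ± 0.08) were lower on day 7, and *Psmg4* was not called (−0.14, adjusted p = 0.125). Of those of the base, *Psmd5* (−0.47 ± 0.04), *Psmd9* (−0.46 ± 0.05) and *Psmd10* were lower. *Psmd5* and *Psmd9* had risen with time in shRNA-CON, by 0.19 ± 0.06 and 0.37 ± 0.09, and had fallen with shRNA-RUS. The fall of *Psmd9* turned to 0.02 and that of *Psmd5* to 0.18 with TPM as deposited.

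Fold changes in these libraries moved with transcript length, and most proteasome transcripts are short. Length is that of the annotated transcript with the longest coding part, and for 34 of the 46 members it is under 2000 nucleotides. Over the other genes that averaged 1 TPM or more, Spearman's rho between length and log2 fold change was −0.21 on day 5, 0.18 on day 7 and 0.40 for the difference between the days, a description over genes, which are not independent. Over the 46 members it was −0.39, 0.14 and 0.51. Among other genes of 1000 to 1500 nucleotides the median log2 fold change was 0.09 on day 5 and −0.14 on day 7, beside 0.07 and −0.36 for the 16 members of that length. Of these other genes 43.5% were lower on day 7, and 14 of the 16 members were. For the difference between the days, the medians were −0.26 and −0.44. After a fit that takes out the trend with length in each library, an alternative added after the data had been seen, 34 members were lower and 4 higher on day 7, where 24.1% of all genes were lower and 24.9% higher. The median log2 fold change of the members on day 7 was then −0.22 in place of −0.34, beside 0.01 over all genes. On day 5, 18 members were higher and 5 lower, where 20.3% and 15.4% of all genes were. The difference between the days was then called lower for 39 members and higher for 0 (16.0% and 10.6% of all genes). What lies behind the trend with length was not tested.

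**Figure D4:**
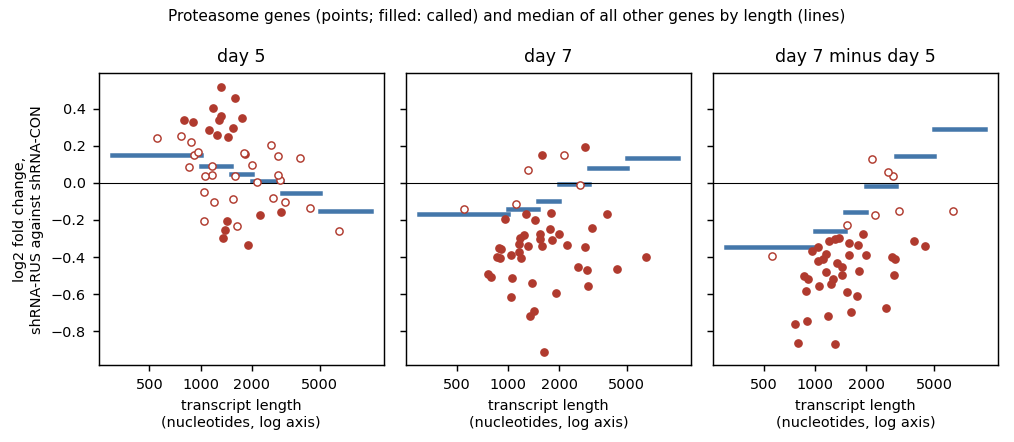
Log2 fold change of each proteasome gene (points, filled where called) against the length in nucleotides of its annotated transcript with the longest coding part (log axis), on day 5, on day 7 and for day 7 minus day 5, with the median of all other genes of at least 1 TPM in 6 ranges of length (lines). The lines slope down on day 5 and up on day 7, and most members of day 7 lie below the line of their own length.

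Genes that build, steer or feed the proteasome were counted from lists written by hand. Of 19 other parts and partners found in the tables, 3 were higher and 7 lower on day 5, and 4 higher and 9 lower on day 7. For these lists, the shares among genes that averaged 1 TPM or more were 21.0% higher and 22.8% lower on day 5 and 32.0% and 33.2% on day 7, and several of the counts lie near them. *Txnl1*, a thioredoxin-like protein bound to the regulatory particle, had 96.2, 113, 111 and 106 scaled TPM with shRNA-CON and 48.4, 46.3, 43.4 and 48.4 with shRNA-RUS on day 5, and 86.6, 90.8, 86.5 and 91.2 against 39.2, 40.2, 38.7 and 38.5 on day 7. It was more strongly lower than any subunit gene on both days (−1.19 ± 0.07 and −1.17 ± 0.03), and the library labelled replicate 4 did not stand apart here. *Sem1*, the smallest lid subunit, which has no *Psm* symbol, had 93.9, 139, 109.6 and 124 against 133, 119.7, 129 and 97.8 on day 5, where the groups overlapped, and 128, 118, 124 and 106 against 77.3, 73.0, 72.4 and 69.0 on day 7 (−0.69 ± 0.06, adjusted p = 1.43e-05). *Zfand5*, a proteasome-binding zinc finger protein, rose on day 7, from 52.8, 52.7, 54.3 and 60.6 to 89.4, 89.3, 80.9 and 95.1 scaled TPM (0.70 ± 0.06). *Pomp*, the maturation protein of the core, was also lower on day 7 (−0.47 ± 0.05). It was named after its values were seen.

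Of 10 genes that control transcription of proteasome genes, 2 were higher and 2 lower on day 5, and 6 higher and 2 lower on day 7. *Nfe2l1* rose on both days, against the direction of the subunit genes on day 7. It had 156, 143, 141 and 136 scaled TPM with shRNA-CON and 186, 204, 198 and 214 with shRNA-RUS on day 5 (0.48 ± 0.06, adjusted p = 0.000387), and 139.7, 133, 144 and 132 against 243, 252, 249 and 244 on day 7 (0.86 ± 0.04, adjusted p = 2.56e-07). No libraries overlapped on either day. *Ngly1*, whose product processes the *Nfe2l1* protein, was lower (−0.17 ± 0.05 and −0.43 ± 0.04), and *Bach1*, a repressor at antioxidant response elements, was higher on day 7 (0.67 ± 0.05). Of the 6 members with the element in their window, *Psmb5* and *Psmb6* were higher on day 5, *Psmc6* and *Psmd12* lower, and *Psmd9* and *Psme4* not called, and on day 7 all 6 were lower, as were 84.8% of all members. Of the 6 genes of ubiquitin and its activating enzymes 2 were higher on day 5, and 1 was higher and 4 were lower on day 7. Of 10 cytosolic chaperones and heat shock genes 5 were higher and 4 lower on day 7, with *Bag3*, which directs clients to autophagy, at 1.49 ± 0.10.

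**Figure D5:**
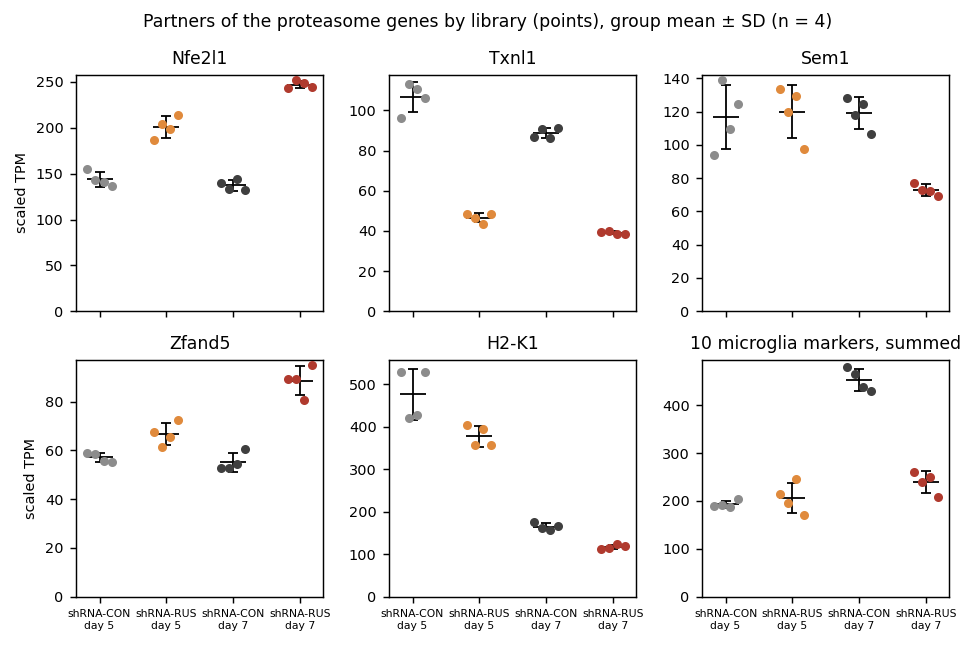
Scaled TPM of *Nfe2l1*, *Txnl1*, *Sem1*, *Zfand5* and *H2-K1* and the summed scaled TPM of 10 microglia markers in each library (points), with group mean and SD (n = 4); each panel has its own axis from 0. *Nfe2l1* and *Zfand5* are highest and *Txnl1*, *Sem1* and *H2-K1* lowest in shRNA-RUS on day 7, and the microglia sum is highest in shRNA-CON on day 7.

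Around the immunoproteasome, 12 genes of antigen presentation and interferon signalling were counted. On day 5, 3 were higher and 4 lower, and on day 7, 4 were higher and 6 lower. With time in shRNA-CON 9 fell and 1 rose, where 28.9% and 30.8% of genes that averaged 1 TPM or more did. Of those that fell, *B2m*, *H2-K1* and *H2-D1* kept their call under all 4 scalings. The others lost it under at least 1. *H2-K1*, a class I molecule that presents the peptides, and *Tap1*, the transporter gene beside *Psmb9*, were named after their values were seen. *H2-K1* had 529, 422, 428 and 528 scaled TPM on day 5 and 175, 162, 157 and 167 on day 7 with shRNA-CON, a fall of 1.52 ± 0.08 on the log2 scale, of the order of that of *Psmb10*. With shRNA-RUS it had 404, 357, 394 and 357, and then 112, 113, 123 and 119. *Tap1* was lower on day 7 (−0.27 ± 0.06). The transcription factor genes *Stat2* (1.01 ± 0.06) and *Nlrc5* (0.91 ± 0.14), which act upstream of class I and immunoproteasome genes, were higher on day 7, whereas *Irf8* was lower (−0.90 ± 0.08). On day 5 *Nlrc5* had been lower with shRNA-RUS (−0.62 ± 0.11, adjusted p = 0.00245), and its effect differed between the days by 1.52 ± 0.18 (adjusted p = 3.3e-05).

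The 10 microglia markers were all detected. They summed to 187 to 204 scaled TPM with shRNA-CON and 170.1 to 245 with shRNA-RUS on day 5, and to 431 to 480.0 and 209 to 262 on day 7. On day 7, 10 of 10 were lower with shRNA-RUS, with a median log2 fold change of −0.93. With time in shRNA-CON 8 of 10 rose and 0 fell. Cycling-cell markers were lower with shRNA-RUS on both days (6 of 6), and those of the oligodendrocyte lineage in 3 of 6 and 5 of 6. The 6 neuron markers summed to 453 to 508 scaled TPM with shRNA-CON and 476 to 531.5 with shRNA-RUS on day 5, and to 615 to 673 and 556 to 653 on day 7. With shRNA-RUS 2 of 6 were higher and 1 lower on day 5, and 3 and 2 on day 7, and with time 4 rose and 1 fell in shRNA-CON and 5 and 1 in shRNA-RUS. The part of these cells in the values of the proteasome genes was not tested.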

How the data were processed

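Per the labels and the study's methods, the authors enriched polyA RNA, aligned reads to mm10 (GRCm38 annotation) with STAR, and used RSEM for quantification. The deposited tables hold TPM, 1 table per day, beside columns of the authors' own DESeq2 comparison (base mean, log2 fold change, standard error, statistic, p-value and adjusted p-value), which were not used. No counts were at hand, so the read depth is unknown and no counting interval is given. TPM summed to 999999.3 to 1000000.7 per library, with 25615 to 29126 genes above 0.

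Each library was scaled by its median ratio to the others over genes that reached 1 TPM throughout a fit, and log2(value + 0.1) was tested with limma 3.58.1 in R 4.3.3 (trend, two-sided, Benjamini-Hochberg over all genes averaging 0.1 TPM or more, threshold 0.05). Fold changes are on this scale. Each day was fitted alone. Comparisons with time used all 16 libraries, without 106 lines whose symbols differ between the tables. Ratios were tested by exact permutation. Lengths and positions come from GENCODE vM21 by symbol, and promoters from RefSeq. Python 3.11.15, pandas 2.3.3, numpy 2.4.6 and matplotlib 3.10.9 were used. Reads of near-identical pseudogenes may be split, as may those of overlapping genes.

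Values in every library are given for the catalytic, activator and inhibitor genes, for the 3 largest called increases and decreases of each day and for the 3 largest called differences between days; from other lists up to 3 called genes per day are named. Members, lists and this rule were chosen with earlier results of these data known.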

Additional observations from a re-analysis of the deposited data

Results flagged for a closer look

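Among the members described by library, several had a knockdown effect that differed between the days in the fit over 16 libraries. Since these members were chosen in part for such changes, their number is not a result. The differences on the log2 scale were −0.87 for *Psmb10*, −0.86 for *Psmb6*, −0.76 for *Psmb3*, −0.75 for *Psmb5*, −0.72 for *Psmb4*, −0.69 for *Psmb8*, −0.50 for *Psmd10*, −0.48 for *Psmb7*, −0.43 for *Psmb9*, −0.41 for *Psme1*, −0.37 for *Psme2*, −0.32 for *Psmd7*, −0.31 for *Psmf1*, −0.30 for *Psmd6* and −0.28 for *Psmd12*. The calls of *Psmb9*, *Psmd6*, *Psmd7*, *Psmd12*, *Psme1*, *Psme2* and *Psmf1* were lost under at least 1 of the other scalings.

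Single libraries stood apart from the other three of their group (Dixon's test) in 11 of the 72 sets of 4 values, where chance gives about 1 in 20. In 4 of them it was the library labelled shRNA-RUS replicate 4 on day 5, low for *Psmb3* (250.7 scaled TPM), *Psmb4* (342), *Psmb5* (206) and *Psmb6* (386). Replicate 1 of that group was high for *Psmd6* (109.5) and *Psmd12* (77.5). The others were *Psmd7* in shRNA-CON replicate 1 on day 5 (111), *Psmb4* in shRNA-CON replicate 4 on day 7 (262), *Psme1* in shRNA-CON replicate 2 on day 7 (92.6), and *Psmb6* (242) and *Psmf1* (49.0) in shRNA-RUS replicate 4 on day 7.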

How the results depend on the processing

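Of the recomputed counts 308 stayed within 1.5 times and 34 did not, and of the recomputed member values 4947 kept direction and side of the threshold, 200 lost and 76 gained a call and 21 turned sign. The values that moved are given by setting, and where no construction shows the cause, the cause was not tested. The length adjustment was added after the data had been seen. Read depth is unknown, so counting error cannot be given.

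Members called with no filter were 8 in all for knockdown on day 5, 5 higher for knockdown on day 5 and 3 lower for knockdown on day 5 (4.08% higher and 4.96% lower over all genes). Members called without the variance trend were 11 in all for knockdown on day 5, 8 higher for knockdown on day 5 and 3 lower for knockdown on day 5 (12.8% and 17.4% over all genes). Members called with TPM as deposited were 6 higher for knockdown on day 5, 15 lower for knockdown on day 5, 7 higher for time with shRNA-CON, 17 lower for time with shRNA-CON, 5 higher for time with shRNA-RUS and 3 higher for the difference between days. Members called after quantile normalization were 5 higher for knockdown on day 5, 13 lower for knockdown on day 5, 7 higher for time with shRNA-CON and 2 higher for time with shRNA-RUS. Members called with 75th percentile scaling were 11 lower for knockdown on day 5 and 2 higher for time with shRNA-RUS. Members called after adjustment for length were 4 higher for knockdown on day 7 and 0 higher for time with shRNA-RUS (24.9% and 27.1% of all genes higher).

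With the replicate number as a block, 7 members were called on day 5, 6 higher and 1 lower, where 9.88% and 12.1% of all genes were. Whether the numbers pair the libraries is not given in the sources. Same-numbered libraries of both shRNAs had deviations correlated by −0.25 to −0.016 on day 5 and 0.016 to 0.10 on day 7. These deviations are taken from the mean of few libraries, so the correlations cannot show whether a number marks a shared isolation. On day 7 the block gave 39 lower (24.0% of all genes), and for the difference 38 (13.7%).

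Leaving out each library in turn gave 9 to 27 calls for knockdown on day 5, with 7 to 21 higher and 2 to 6 lower, beside 11.7% to 17.4% and 13.8% to 20.3% of all genes. Leaving out each library in turn gave 40 to 42 calls for knockdown on day 7, with 2 to 3 higher and 38 to 40 lower, beside 21.4% to 22.8% and 23.6% to 24.8% of all genes. Leaving out each library in turn gave 30 to 36 calls for time with shRNA-CON, with 4 to 5 higher and 26 to 32 lower, beside 24.5% to 28.0% and 19.8% to 22.5% of all genes. Leaving out each library in turn gave 43 to 44 calls for time with shRNA-RUS, with 1 to 1 higher and 42 to 43 lower, beside 33.1% to 35.1% and 24.6% to 25.9% of all genes. Leaving out each library in turn gave 38 to 40 calls for the difference between days, with 0 to 0 higher and 38 to 40 lower, beside 12.9% to 18.4% and 12.9% to 16.3% of all genes. The log2 differences of the ratios then ran from −0.60 to −0.54 for Psmb8 over Psmb5 on day 5, from −0.58 to −0.38 for Psmb8 over Psmb5 on day 7, from −0.70 to −0.59 for Psmb9 over Psmb6 on day 5, from −0.30 to −0.14 for Psmb9 over Psmb6 on day 7, from 0.37 to 0.52 for Psmb10 over Psmb7 on day 5 and from −0.014 to 0.081 for Psmb10 over Psmb7 on day 7. The ratio of Psmb10 over Psmb7 on day 7 turned its sign without shRNA-CON replicate 1 (−0.0071) and without shRNA-RUS replicate 2 (−0.014).

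For knockdown on day 5, after quantile normalization, the sign turned for *Psma3* (−0.16) and *Psmc3* (−0.028). For time with shRNA-CON, after quantile normalization, the sign turned for *Psma4* (0.041), *Psmc4* (0.17), *Psmd1* (0.0031), *Psmd13* (0.030) and *Psmd2* (0.0072). For time with shRNA-RUS, after quantile normalization, the sign turned for *Psmd11* (0.028) and *Psmd5* (0.023). For knockdown on day 5, with TPM as deposited, the sign turned for *Psmc3* (−0.0040). For time with shRNA-CON, with TPM as deposited, the sign turned for *Psmc2* (0.0019), *Psmc4* (0.14), *Psmd1* (0.018), *Psmd10* (0.032) and *Psmd13* (0.024). For time with shRNA-RUS, with TPM as deposited, the sign turned for *Psmc6* (0.092), *Psmd1* (0.040), *Psmd11* (0.14), *Psmd5* (0.18), *Psmd9* (0.023) and *Psmf1* (0.23).

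With TPM as deposited, knockdown on day 5 had class medians of −0.037 (core), −0.39 (immunoproteasome), −0.060 (regulatory), −0.12 (activator) and −0.12 (assembly). With TPM as deposited, time with shRNA-CON had class medians of −0.10 (core), −1.04 (immunoproteasome), −0.061 (regulatory), −0.11 (activator) and 0.090 (assembly). With TPM as deposited, time with shRNA-RUS had class medians of −0.49 (core), −1.56 (immunoproteasome), −0.19 (regulatory), −0.11 (activator) and −0.13 (assembly). With TPM as deposited, the difference between days had class medians of −0.34 (core), −0.52 (immunoproteasome), −0.15 (regulatory), −0.089 (activator) and −0.32 (assembly). After quantile normalization, knockdown on day 5 had class medians of −0.050 (core), −0.033 (regulatory) and −0.075 (activator). After quantile normalization, knockdown on day 7 had class medians of −0.34 (core), −0.25 (regulatory) and −0.49 (assembly). After quantile normalization, time with shRNA-CON had class medians of −0.063 (core), −0.096 (regulatory) and −0.15 (activator). After quantile normalization, time with shRNA-RUS had class medians of −0.40 (core), −0.26 (regulatory) and −0.19 (activator). After quantile normalization, the difference between days had class medians of −0.36 (core), −0.22 (regulatory) and −0.19 (activator). With 75th percentile scaling, knockdown on day 5 had class medians of 0.028 (regulatory) and −0.028 (activator). With 75th percentile scaling, knockdown on day 7 had class medians of −0.43 (core), −0.32 (regulatory), −0.20 (activator) and −0.50 (assembly). With 75th percentile scaling, time with shRNA-CON had class medians of −0.20 (activator). With 75th percentile scaling, time with shRNA-RUS had class medians of −0.72 (core), −0.42 (regulatory), −0.34 (activator) and −0.36 (assembly). After adjustment for length, knockdown on day 7 had class medians of −0.25 (core), −0.58 (immunoproteasome), −0.18 (regulatory), −0.0090 (activator) and −0.36 (assembly). After adjustment for length, time with shRNA-RUS had class medians of −0.45 (regulatory). After adjustment for length, the difference between days had class medians of −0.24 (regulatory).

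The libraries of shRNA-RUS day 5 summed with TPM as deposited to 3192 (core), 2322 (regulatory) and 448 (activator) TPM. The libraries of shRNA-CON day 7 summed with TPM as deposited to 3020.0 (core), 73.6 (immunoproteasome), 2327 (regulatory) and 405 (activator) TPM. The libraries of shRNA-RUS day 7 summed with TPM as deposited to 2294 (core), 48.7 (immunoproteasome), 1973 (regulatory) and 362 (activator) TPM. The libraries of shRNA-CON day 5 summed after quantile normalization to 2403 (regulatory) TPM. The libraries of shRNA-RUS day 5 summed after quantile normalization to 3094 (core), 2333 (regulatory) and 450.3 (activator) TPM. The libraries of shRNA-CON day 7 summed after quantile normalization to 3052 (core), 2316 (regulatory) and 399 (activator) TPM. The libraries of shRNA-RUS day 7 summed after quantile normalization to 2339 (core), 1950.0 (regulatory) and 351 (activator) TPM. The libraries of shRNA-RUS day 5 summed with 75th percentile scaling to 2526 (regulatory) and 487 (activator) TPM. The libraries of shRNA-CON day 7 summed with 75th percentile scaling to 2904 (core), 70.8 (immunoproteasome), 2238 (regulatory) and 390.0 (activator) TPM. The libraries of shRNA-RUS day 7 summed with 75th percentile scaling to 336 (activator) TPM.

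Class medians for knockdown on day 5, leaving out single libraries, ran from 0.084 to 0.18 (core), from −0.28 to −0.13 (immunoproteasome), from 0.080 to 0.13 (regulatory), from 0.028 to 0.062 (activator) and from 0.0011 to 0.079 (assembly). Class medians for knockdown on day 7, leaving out single libraries, ran from −0.40 to −0.37 (core), from −0.77 to −0.65 (immunoproteasome), from −0.28 to −0.22 (regulatory), from −0.16 to −0.14 (activator) and from −0.48 to −0.41 (assembly). Class medians for time with shRNA-CON, leaving out single libraries, ran from −0.29 to −0.23 (core), from −1.24 to −1.13 (immunoproteasome), from −0.24 to −0.19 (regulatory), from −0.29 to −0.23 (activator) and from −0.12 to 0.013 (assembly). Class medians for time with shRNA-RUS, leaving out single libraries, ran from −0.87 to −0.79 (core), from −1.98 to −1.75 (immunoproteasome), from −0.54 to −0.46 (regulatory), from −0.44 to −0.42 (activator) and from −0.52 to −0.42 (assembly). Class medians for the difference between days, leaving out single libraries, ran from −0.57 to −0.47 (core), from −0.79 to −0.56 (immunoproteasome), from −0.35 to −0.28 (regulatory), from −0.29 to −0.23 (activator) and from −0.56 to −0.47 (assembly).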
